A study of Mus musculus with 6 samples.

Results

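The lysozyme genes Lyz1 and Lyz2 were followed in bulk RNA sequencing of whole mouse adrenal glands, 2 of the 54532 genes in the deposited count table. They were found by their Ensembl identifiers, ENSMUSG00000069515 for Lyz1 and ENSMUSG00000069516 for Lyz2, and both are among the 16300 genes that passed the filter on low counts and were tested. The glands belonged to a group labelled VEGF/LysM, with 3 samples, and a group labelled WT, with 3 samples, which the series compares to learn what VEGF-A made by macrophages does for the gland. The labels give no allele, strain, age or sex, and they do not say that replicates are separate animals, so the spread between them may be technical. The pair was selected on measured values of this same contrast, namely the counts of both genes, the share of Lyz1 in the pair and the ratio of Lyz2 to macrophage markers. These are therefore described without a test.

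Lysozymes cut peptidoglycan, the sugar and peptide mesh of bacterial cell walls. The mouse carries 2 neighbouring genes for the classical enzyme. Lyz2, whose product is lysozyme M and whose older name is LysM, is made by macrophages, monocytes and neutrophils, while Lyz1, whose product is lysozyme P, is best known from the Paneth cells at the base of the small intestine's crypts. In the widely used mouse line called LysM-Cre, the recombinase was inserted into Lyz2 itself, so that it is made where that gene is active. The labels do not say whether the VEGF/LysM glands carried that allele.

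Library totals ran from 16476879 to 18671950 counts. Levels are given as CPM, counts scaled to a common library size and, by TMM, to a common composition. Over 12 hepatocyte genes the sum was 148, 257 and 945 CPM in VEGF/LysM and 345, 231 and 87200 CPM in WT, so WT replicate 3 stood apart. Serum albumin's gene, Alb, stood at 1.05, 0.736 and 169 CPM in VEGF/LysM and at 0.0568, 0.155 and 51380 CPM in WT. The main lysozyme results are therefore also given without WT replicate 3. The adrenal list was high in all 6 glands, with 47200 to 56800 CPM in VEGF/LysM and 53500, 48600 and 30300 CPM in WT over 12 genes. The lowest of these sums was that of WT replicate 3, below its hepatocyte sum. Star, which moves cholesterol into mitochondria, and Cyp21a1, the steroid 21-hydroxylase, led the adrenal list. Vegfa, which encodes the VEGF-A of the group label, had 180, 193 and 501 CPM in VEGF/LysM and 295, 241 and 332 CPM in WT. The groups overlapped for Vegfa, and because many cells of a gland make it, these values check the labels poorly.

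Lyz2 spans chr10:117277331-117282321 and Lyz1 chr10:117287797-117292868 on the minus strand of GRCm38, the assembly that mm10 names. Both have 4 exons, and 5475 bases lie between them. Their coding sequences of 447 bases differ at 22 bases. The coding parts of exons 1 and 2, which hold 20 of those bases, are shown because such differences are what lets a read be given to either copy. Each line reads 5′ to 3′ in the reference transcript of GENCODE M21, exon 1 from the start codon, with capitals at the bases that differ between the copies.
Lyz1 exon 1: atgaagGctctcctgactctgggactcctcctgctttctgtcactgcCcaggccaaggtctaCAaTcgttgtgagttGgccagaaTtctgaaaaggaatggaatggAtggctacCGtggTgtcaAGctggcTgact
Lyz2 exon 1: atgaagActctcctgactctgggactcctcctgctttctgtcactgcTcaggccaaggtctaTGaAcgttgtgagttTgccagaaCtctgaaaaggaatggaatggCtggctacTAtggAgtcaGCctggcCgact
Lyz1 exon 2: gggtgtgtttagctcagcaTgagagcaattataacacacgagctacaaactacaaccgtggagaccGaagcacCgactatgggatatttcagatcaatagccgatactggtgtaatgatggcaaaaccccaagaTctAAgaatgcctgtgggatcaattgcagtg
Lyz2 exon 2: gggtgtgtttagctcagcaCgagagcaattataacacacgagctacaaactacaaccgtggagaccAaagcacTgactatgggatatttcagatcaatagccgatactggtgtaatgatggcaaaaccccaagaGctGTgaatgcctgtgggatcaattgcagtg
The copies were identical at 95.08% of coding bases. Of the 22 differences, 14 lie in exon 1, 6 in exon 2, 0 in exon 3 and 2 in exon 4, and the longest stretch without any is 118 bases. The whole transcripts, of 1263 bases for Lyz1 and 1316 for Lyz2, had 51 mismatched bases and 55 gap positions in their alignment. The stretches after the stop codon, aligned by themselves, had 29 mismatched bases and 6 gap positions. The promoter windows of RefSeq (GRCm38.p6), 300 bases each, were less alike, at 83.56% of aligned bases.

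The submitters' processing notes name kallisto, a program that assigns reads by short words of sequence. Of the 1233 words of 31 bases in the Lyz1 transcript, 422 (34.2%) also occur in Lyz2, and those 422 make up 32.8% of the 1286 words of Lyz2. Of the 811 Lyz1 words not found in Lyz2, 525 lie wholly after the stop codon and 255 wholly in the coding part. None of the words of either transcript occurs in a transcript of another gene. Of stretches of 75 bases, 6.22% of those in Lyz1 and 5.96% of those in Lyz2 were identical in the other copy. The labels give neither the word length nor the read length. Most of either transcript can thus be told apart in the reference sequence, while the rest cannot, so a split of reads between the copies carries some uncertainty.

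Lyz2 transcripts were lower in the VEGF/LysM glands than in the WT glands. Lyz2 had 2254, 2105 and 2277 counts in VEGF/LysM and 3267, 5336 and 3537 counts in WT. Scaled by TMM, which sets libraries to a common composition, these were 132, 111 and 134 CPM in VEGF/LysM and 186, 275 and 263 CPM in WT. Every VEGF/LysM value lay below every WT value. The group means were 126 ± 13.0 CPM in VEGF/LysM and 241 ± 48.3 CPM in WT (SD, n = 3 each), a log2 fold change of -0.94 ± 0.19 (SE) or 0.521 of the WT level. Without WT replicate 3 the log2 fold change was -0.88. Counting error was small beside the spread over the WT libraries, but not beside that over the VEGF/LysM libraries. The exact Poisson interval (95%) ran from 2016 to 2197 counts around the lowest VEGF/LysM count. In a whole gland, fewer cells of a type and less RNA per cell cannot be told apart.

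Lyz1 went the opposite way at a far lower level. Lyz1 had 240, 279 and 210 counts in VEGF/LysM and 14, 57 and 93 counts in WT. These were 14.1, 14.7 and 12.4 CPM in VEGF/LysM and 0.796, 2.94 and 6.91 CPM in WT. The VEGF/LysM values were close to each other and all above the WT values, which themselves spread widely. The means were 13.7 ± 1.20 CPM in VEGF/LysM and 3.55 ± 3.10 CPM in WT (SD, n = 3 each). The log2 fold change was 1.96 ± 0.66 (SE), or 3.89-fold, and 2.85 without WT replicate 3, the WT library with the most Lyz1. The exact Poisson interval ran from 183 to 240 counts around the lowest VEGF/LysM count and from 75.1 to 114 counts around the highest WT count. Such intervals cover counting error only.

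**Figure D1:**
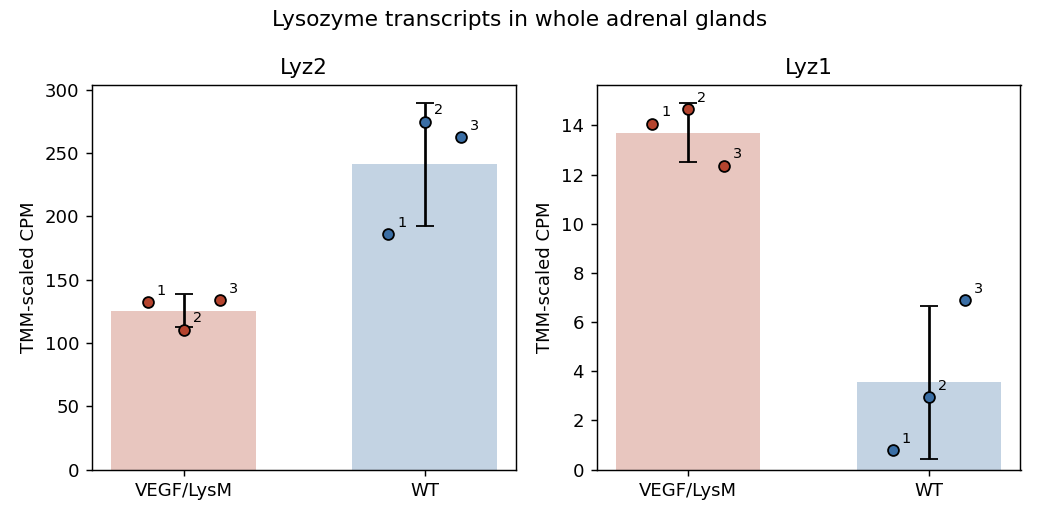
TMM-scaled CPM of Lyz2 (left panel) and Lyz1 (right panel) in VEGF/LysM and WT glands. Points are libraries numbered by replicate, bars are means and whiskers are SD (n = 3 each). For Lyz2 all VEGF/LysM points lie at or below 134 CPM and all WT points at or above 186 CPM, and for Lyz1 the VEGF/LysM points lie at or above 12.4 CPM and the WT points at or below 6.91 CPM.

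No gene passed the test across the whole table. edgeR's quasi-likelihood test with Benjamini-Hochberg adjustment called 0 of 16300 genes (0%) between VEGF/LysM and WT, with 459 (2.82%) at an unadjusted p under 0.05, so neither lysozyme gene was called either. The count of called genes was also 0 by limma-voom, with 224 genes under that unadjusted p, and by DESeq2, with 542. Without WT replicate 3 edgeR called 1 gene, which was neither Lyz1 nor Lyz2. VEGF/LysM values all lay below WT values, as for Lyz2, in 2.41% of tested genes, and all above them, as for Lyz1, in 3.54%. Both members were picked with such values known, so nothing is read from these shares.

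The sum of both copies does not depend on how reads were split between them. The pair had 2494, 2384 and 2487 counts in VEGF/LysM and 3281, 5393 and 3630 counts in WT. At 139 ± 12.1 CPM in VEGF/LysM and 245 ± 50.5 CPM in WT (SD, n = 3 each), the sum followed Lyz2, which supplied most of it. The groups did not overlap, and the log2 fold change of the sum was -0.81 ± 0.19 (SE), or -0.74 without WT replicate 3.

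Lyz1 made up a larger share of the pair in the VEGF/LysM glands. Its share of the counts was 9.62%, 11.7% and 8.44% in VEGF/LysM and 0.427%, 1.06% and 2.56% in WT. The 95% Wilson interval was 7.41% to 9.60% for the lowest VEGF/LysM share and 2.10% to 3.13% for the highest WT share. These intervals cover counting error only and are no test between the groups. The mean share was 9.92 ± 1.65% in VEGF/LysM and 1.35 ± 1.10% in WT (SD, n = 3 each), a difference of 8.57 percentage points. It became 8.89 points per kb of exon length and 9.18 points without WT replicate 3. Library scaling does not enter this share, since both counts come from the same library. There were 9.39, 7.55 and 10.8 Lyz2 counts to each Lyz1 count in VEGF/LysM and 233, 93.6 and 38.0 in WT, so the WT libraries also differed widely among themselves.

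**Figure D2:**
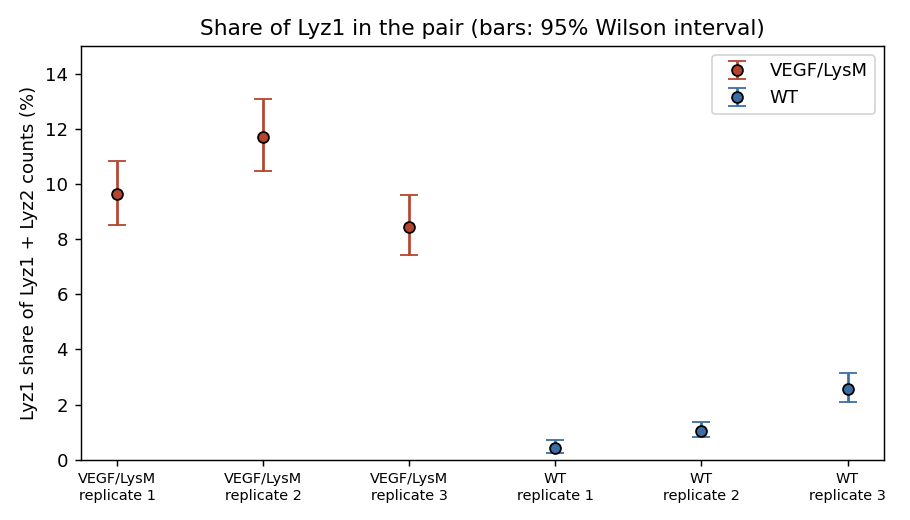
Share of Lyz1 in the summed Lyz1 and Lyz2 counts of each library, in percent, with 95% Wilson intervals. The 3 VEGF/LysM libraries lie between 8.44% and 11.7%, and the 3 WT libraries between 0.427% and 2.56%.

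Lyz2 was then set against other macrophage transcripts of the same library. Csf1r encodes the receptor for the growth factor that macrophages depend on. It had 57.1, 47.9 and 70.2 CPM in VEGF/LysM and 49.8, 63.5 and 65.4 CPM in WT. Cd68, a macrophage lysosomal membrane protein, had 14.7, 14.7 and 22.4 CPM in VEGF/LysM and 17.9, 19.1 and 13.9 CPM in WT. The groups overlapped for both markers. Lyz2 counts per Csf1r count were 2.31, 2.31 and 1.91 in VEGF/LysM and 3.73, 4.33 and 4.01 in WT. Per Cd68 count they were 9.02, 7.55 and 5.99 in VEGF/LysM and 10.4, 14.4 and 18.9 in WT. By either marker every VEGF/LysM gland had less Lyz2 than any WT gland, and the spread over WT was wider with Cd68 than with Csf1r. These are ratios of counts, uncorrected for gene length, and serve to compare libraries only.

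Against the geometric mean of Csf1r and Cd68, Lyz2 stood at 4.57, 4.17 and 3.38 in VEGF/LysM and at 6.23, 7.89 and 8.71 in WT. The difference was -0.91 on the log2 scale, and -0.81 without WT replicate 3. Adgre1, the surface marker F4/80, gave a larger gap: Lyz2 counts per Adgre1 count were 5.82, 8.19 and 5.57 in VEGF/LysM and 16.6, 12.8 and 16.7 in WT, or -1.25 on the log2 scale. With the geometric mean of all 25 macrophage genes as denominator the ratios drew together within each group. They were 7.08, 6.57 and 6.03 in VEGF/LysM and 11.8, 12.5 and 11.6 in WT, or 6.56 ± 0.526 in VEGF/LysM and 11.9 ± 0.459 in WT (SD, n = 3 each). In VEGF/LysM that ratio was 0.548 of its WT level, close to the 0.521 found for Lyz2 CPM. Lyz1 per Csf1r count stood at 0.246, 0.306 and 0.176 in VEGF/LysM and at 0.0160, 0.0463 and 0.106 in WT.

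**Figure D3:**
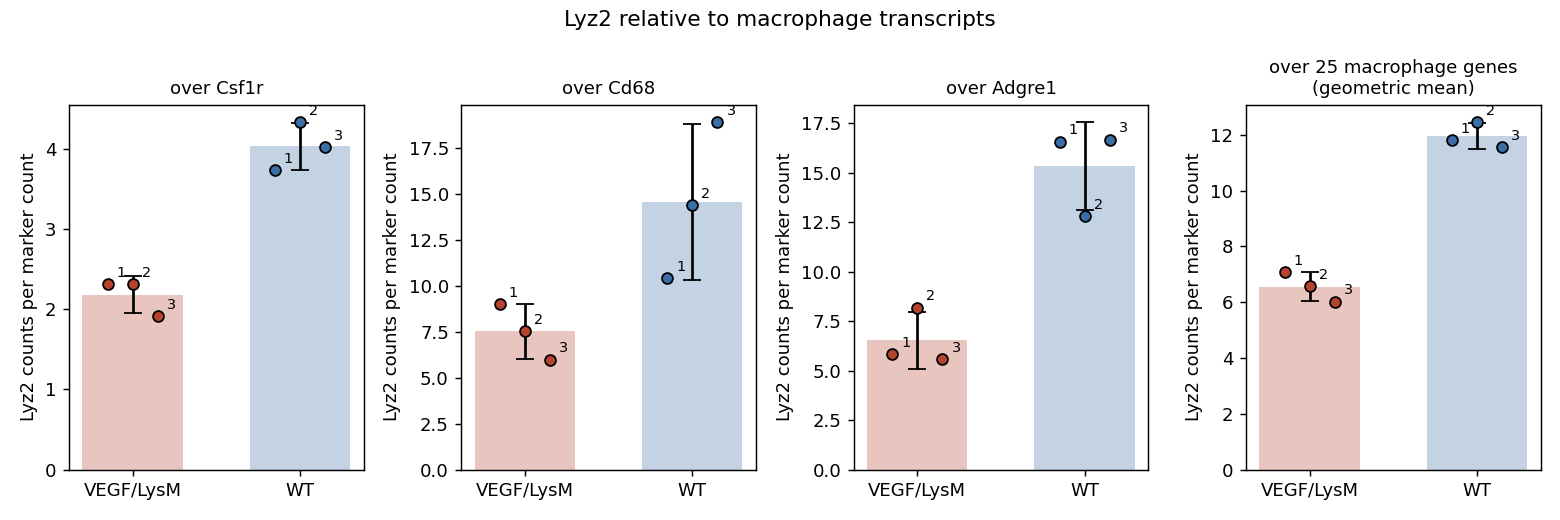
Lyz2 counts per count of Csf1r, Cd68, Adgre1 and the geometric mean of 25 macrophage genes, one panel each, for VEGF/LysM and WT. Points are libraries numbered by replicate, bars are means and whiskers are SD (n = 3 each). In all 4 panels the VEGF/LysM points lie below the WT points, and over the 25 genes they read 6.03 to 7.08 in VEGF/LysM and 11.6 to 12.5 in WT.

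The macrophage list as a whole had overlapping groups. Of its 25 genes, all tested, 0 were called, 10 had a log2 fold change above 0 and 15 below, and the groups overlapped for each of the 25, whereas 5.95% of all tested genes had groups that did not overlap. The list's median log2 fold change was -0.028, near the 0.0013 of all tested genes, and it changed sign with library-size scaling (0.063), without VEGF/LysM replicate 2 (0.058) and without WT replicate 2 (0.016). Its summed level was 731 to 1090 CPM in VEGF/LysM and 788 to 1190 CPM in WT. In the main fit 2 of the 25 genes had a lower log2 fold change than Lyz2, Lyve1 (-0.96) among them, and 0 had without WT replicate 3. Lyz2 was selected on values of this contrast, so its difference from the list was not tested. Mpeg1, a pore-forming macrophage protein, had 114, 99.4 and 178 CPM in VEGF/LysM and 86.1, 169 and 151 CPM in WT. Ctss, a cathepsin of antigen-presenting cells, had 100.4, 75.1 and 134 CPM in VEGF/LysM and 103, 139 and 112 CPM in WT.

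Per kilobase of exon, Lyz2 was among the most abundant of these transcripts in both groups. Over the 25 genes and both lysozymes, Lyz2 ranked 2 in VEGF/LysM at a mean level of 95.5 CPM per kb and 1 in WT at 183 CPM per kb. C1qa, a chain of complement C1q, was its neighbour in that order, with 99.5 CPM per kb in VEGF/LysM and 108 CPM per kb in WT. In VEGF/LysM the Lyz2 values of 84.1 to 102 CPM per kb spread across the C1qa mean. Lyz1 ranked 12 in VEGF/LysM at 10.9 CPM per kb, beside Fcgr3 at 11.5 and Csf1r at 10.1 CPM per kb. In WT it ranked 21 at 2.81 CPM per kb, beside Lyve1 at 3.51 and Fcgr1 at 2.78 CPM per kb. Its WT libraries of 0.630 to 5.47 CPM per kb spread well beyond those neighbours' means.

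**Figure D4:**
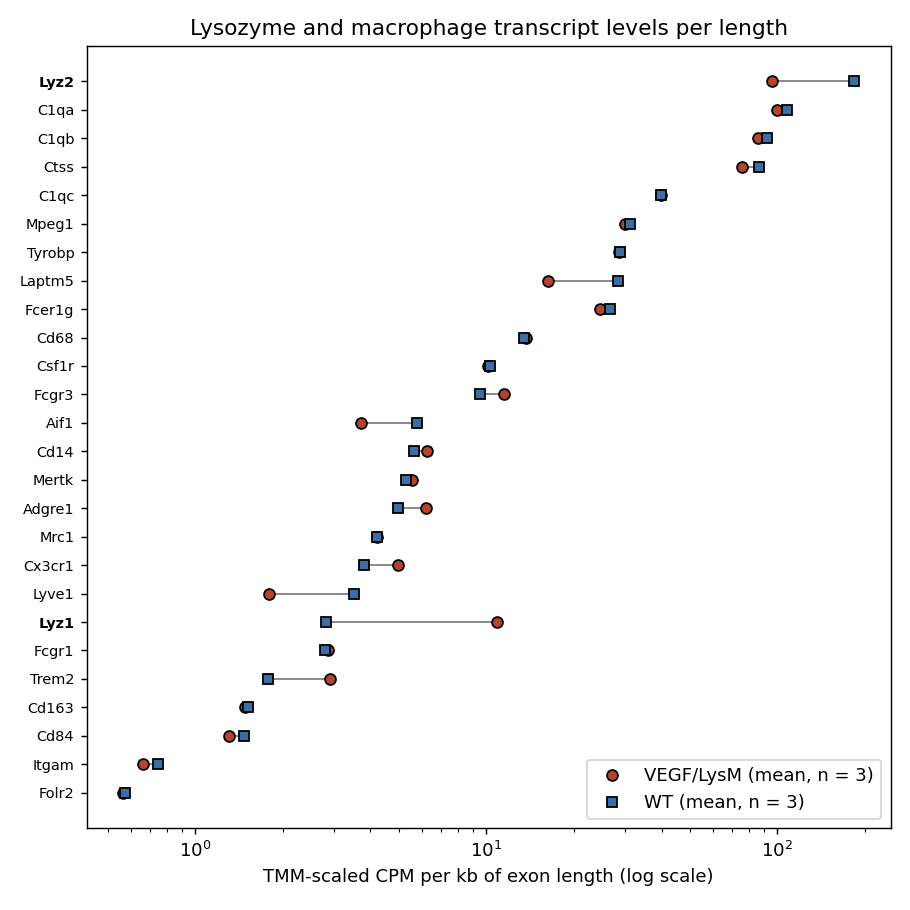
Mean TMM-scaled CPM per kb of exon length (log scale) of Lyz1, Lyz2 and 24 of the 25 macrophage genes in VEGF/LysM (circles) and WT (squares), ordered by the WT level. A line joins each gene's means. Lyz2 has 95.5 in VEGF/LysM and 183 in WT, Lyz1 has 10.9 in VEGF/LysM and 2.81 in WT.

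Other cells that make lysozyme were looked at through their markers. Kupffer cells, the macrophages of the liver, were represented by 9 genes summing to 95.6 to 128 CPM in VEGF/LysM and to 125, 97.0 and 299 CPM in WT. Clec4f, their defining lectin and named after its values were seen, had 0, 0 and 0.177 CPM in VEGF/LysM and 0, 0 and 39.7 CPM in WT. Id3 and Nr1h3, regulators that many other cells also make, were the most abundant of that list, and 7 of its 8 tested genes had a log2 fold change below 0 (median -1.76, 0 called). Monocyte genes summed to 49.5 to 64.8 CPM in VEGF/LysM and to 44.5, 60.8 and 492 CPM in WT. F10, a clotting factor that liver also makes, supplied at most 1.47 CPM of the sum in VEGF/LysM and 0.967, 1.39 and 301 CPM in WT, and Ace, the angiotensin-converting enzyme, had 18.8 to 20.1 CPM in VEGF/LysM and 17.2 to 23.3 CPM in WT. Of 10 tested monocyte genes 0 were called, 3 above and 7 below 0 (median -0.51). Without WT replicate 3 the medians were -0.017 for the Kupffer list, with 4 genes above and 4 below 0, and 0.051 for the monocyte list, with 5 above and 5 below, and the log2 fold change of Lyz2 was -0.88. The part of these cells in the Lyz2 values was not tested.

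Neutrophil transcripts were scarce. The list of 14 genes summed to 5.63 to 10.3 CPM in VEGF/LysM and 6.08 to 24.3 CPM in WT, and 3 were tested with 0 called (median 0.41, and 0.62 over 5 tested genes without WT replicate 3). Csf3r, the receptor for granulocyte growth factor, had 1.68 to 6.005 CPM in VEGF/LysM and 2.99 to 4.53 CPM in WT, and Mmp9, a secreted protease, 0.820 to 2.06 CPM in VEGF/LysM and 0.284 to 1.60 CPM in WT. S100a8, S100a9 and Ly6g, which define the cell type, were named after their values were seen. S100a8 reached at most 1.53 CPM and S100a9 at most 1.79 CPM in any library, and Ly6g had at most 1 count. Dendritic cell genes summed to 39.6 to 83.4 CPM in VEGF/LysM and 42.1 to 101 CPM in WT, with 0 of 9 tested called, 3 above and 6 below 0 (median -0.28). Without WT replicate 3 these were 7 above and 2 below (median 0.089). Zbtb46, a transcription factor of those cells and of endothelium, had 16.8 to 24.1 CPM in VEGF/LysM and 18.7 to 20.1 CPM in WT. Itgax, the integrin CD11c, had 8.50 to 22.6 CPM in VEGF/LysM and 10.1 to 18.04 CPM in WT. The part of these cells in the lysozyme values was not tested.

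Paneth cells are the best-known source of Lyz1. Their 10 listed genes summed to 1.82, 5.84 and 1.83 CPM in VEGF/LysM and to 1.99, 1.08 and 0.743 CPM in WT. Spink4, a secreted protease inhibitor and the 1 gene tested, supplied 1.82, 2.58 and 1.77 CPM of this in VEGF/LysM and 1.99, 0.979 and 0.371 CPM in WT (log2 fold change 0.86, not called). The other genes of the list that had counts stood highest in VEGF/LysM replicate 2, apart from Mmp7, and those given here were named after their values were seen. In VEGF/LysM replicates 1, 2 and 3, Defa24, an alpha-defensin, had 0, 20 and 0 counts, Reg3b, an antibacterial lectin, 0, 18 and 0, and its relative Reg3g 0, 7 and 0. Itln1, another secreted lectin, had 0, 8 and 0 counts and Defa30, an alpha-defensin, 0, 6 and 0. In WT these 5 genes had no count, except 2 counts of Reg3g in WT replicate 3. Lyz1 had 240, 279 and 210 counts in VEGF/LysM replicates 1, 2 and 3, and replicate 2 was the largest library. Scaled, these were 14.1, 14.7 and 12.4 CPM, so replicates 1 and 2 were close. The log2 fold change of Lyz1 without VEGF/LysM replicate 2 was 1.89. The part of Paneth or other gut cells in the Lyz1 values was not tested. Lung epithelium, whose alveolar cells also make lysozyme, was represented by 7 genes summing to 4.05 to 4.36 CPM in VEGF/LysM and 6.03 to 22.9 CPM in WT. Napsa, a lung and kidney protease, led it with 2.26 to 2.94 CPM in VEGF/LysM and 3.53, 4.33 and 20.4 CPM in WT, while Sftpc, the surfactant protein that marks alveolar cells, had 1.29 to 1.42 CPM in VEGF/LysM and 0.594 to 2.39 CPM in WT. Neither of these 2 tested lung genes was called, and both were below 0 (median -1.09, and -0.66 without WT replicate 3).

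B and T cell genes were also highest in WT replicate 3, summing to 94.3, 134 and 67.2 CPM in VEGF/LysM and to 274, 150 and 1120 CPM in WT. All 10 were tested, 0 were called and all 10 were below 0 (median -2.65), against 9 of 10 without WT replicate 3 (median -0.64). Ighm, an immunoglobulin heavy chain, had 53.2 to 122 CPM in VEGF/LysM and 121 to 772 CPM in WT. Of the hepatocyte genes 6 were tested, 0 were called and all 6 were below 0 (median -7.47), while without WT replicate 3 all 6 were above 0 (median 2.26). Cyp2e1, a cytochrome P450 of liver that the adrenal libraries also held, had 124 to 668 CPM in VEGF/LysM and 215 to 4990 CPM in WT. All 12 adrenal genes were above 0 (median 0.26) with 0 called, against 7 of 12 without WT replicate 3 (median 0.063). The part of this cell mixture in the lysozyme values was not tested. Leaving WT replicate 3 out is no such test, because the B and T cell and hepatocyte medians stayed away from 0.

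Transcription factors of myeloid genes were examined because members of that class, PU.1 and the C/EBP proteins among them, switch on lysozyme in myeloid cells. Of 14 listed, 11 were tested, 0 were called, 1 had a log2 fold change above 0 and 10 below, and the median was -0.37. Without WT replicate 3 these were 4 above and 7 below, with a median of -0.087. Cebpb had 353, 325 and 422 CPM in VEGF/LysM and 554, 317 and 403 CPM in WT, and Cebpa 178, 304 and 215 CPM in VEGF/LysM and 237, 273 and 454 CPM in WT. The groups overlapped for both, and steroid-producing and fat cells make them too. The list's sum was 721 to 896 CPM in VEGF/LysM and 821 to 1330 CPM in WT, with the highest value again in WT replicate 3.

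Genes of the compartment where lysozyme is stored and of the pathway that reads its products had medians near 0. The lysosome list had 25 tested genes, 0 called, 12 above and 13 below 0, with a median of -0.00059 (0.055 without WT replicate 3). Ctsb, a cysteine protease, had 1719, 1986 and 1646 CPM in VEGF/LysM and 1637, 1740 and 1339 CPM in WT. Psap, the precursor of sphingolipid activators, had 1471, 1512 and 1568 CPM in VEGF/LysM and 1549, 1545 and 1537 CPM in WT. Of 14 genes of peptidoglycan sensing, 10 were tested and 0 called, 5 above and 5 below 0 (median -0.018, and 0.052 without WT replicate 3). Nod1, an intracellular receptor for peptidoglycan fragments, had 20.1, 24.2 and 35.2 CPM in VEGF/LysM and 18.1, 25.9 and 39.4 CPM in WT. Slc46a3, a lysosomal transporter, had 28.8, 19.5 and 26.1 CPM in VEGF/LysM and 19.8, 24.02 and 42.2 CPM in WT.

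No other lysozyme relative passed the filter on low counts. Of the 8 others on the family list, Lyzl1, Lyzl6, Lalba and Lyg2 had 0 counts in all 6 libraries. Lyzl4, Spaca3, Spaca5 and Lyg1 had counts. The highest was Spaca5, a sperm protein of the family, at 0.234, 0.315 and 0.118 CPM in VEGF/LysM and 0.114, 0.155 and 0 CPM in WT. Several of these relatives act in sperm, and Lalba encodes the alpha-lactalbumin of milk.

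The genes that flank the pair on chromosome 10 were described beside it. Within 1 Mb on either side lie 21 protein-coding genes of the table, of which 12 were tested and 0 were called, 7 with a log2 fold change above 0 and 5 below (median 0.11). The nearest tested gene on the Lyz1 side was Cpsf6, a factor of messenger RNA 3′ end processing, 51804 bases away. It had 83.3, 74.0 and 94.3 CPM in VEGF/LysM and 69.0, 68.5 and 84.3 CPM in WT (0.18 ± 0.15 SE). The nearest on the Lyz2 side was Yeats4, a reader of acetylated histones, 52823 bases away. It had 24.9, 33.2 and 27.9 CPM in VEGF/LysM and 37.3, 26.9 and 30.2 CPM in WT (-0.14 ± 0.19 SE). Both overlapped between groups.

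The other tested neighbours ranged from -0.35 ± 0.24 for Rab3ip to 0.20 ± 0.22 for Mdm1 (log2 fold change and SE). Between these lay Cct2, a subunit of a chaperonin, at -0.10, Slc35e3 at -0.053 and Cnot2, of the complex that shortens poly(A) tails, at -0.014. Nup107, a nuclear pore protein, had 0.087, Mdm2, the ubiquitin ligase of p53, 0.13, Cpm, a carboxypeptidase, 0.15, and Frs2, an adaptor of growth factor receptors, 0.17. Rap1b, a small GTPase, at 0.16, was the 1 neighbour of 12 (8.33%) whose groups did not overlap, against 5.95% of all tested genes. It had 157, 152 and 170.2 CPM in VEGF/LysM and 143, 146 and 141 CPM in WT. All 12 tested neighbours lay between -0.35 and 0.20, while Lyz2 had -0.94 and Lyz1 1.96. The pair was selected on values of this contrast, so how far its difference reaches was not tested.

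**Figure D5:**
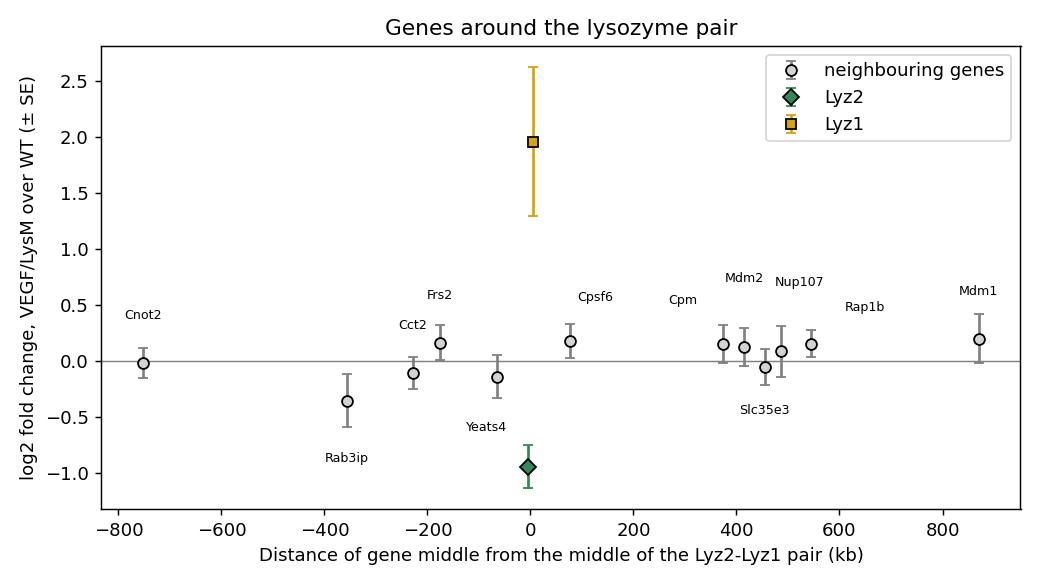
Log2 fold change, VEGF/LysM over WT, with its SE, of Lyz2, Lyz1 and the 12 tested protein-coding genes within 1 Mb, against the distance of each gene's middle from the middle of the pair in kb. Lyz2 lies at -0.94 and Lyz1 at 1.96, while the neighbours lie between -0.35 and 0.20.

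The genes most like each member over the 6 libraries were found by the root mean square difference of gene-centred log2 CPM, among genes with a mean of at least 1 CPM. For Lyz2 these were Fam198a (0.192), Ly86 (0.207), Rpusd3 (0.211), E030042O20Rik (0.212) and Rpl21-ps8 (0.220), where the median over 15216 genes was 0.571. Ly86, a secreted partner of a receptor of B cells and myeloid cells, had 7.50, 6.83 and 9.71 CPM in VEGF/LysM and 8.87, 13.5 and 15.7 CPM in WT. Fam198a had 1.93, 1.05 and 1.71 CPM in VEGF/LysM and 3.13, 3.56 and 3.12 CPM in WT. Rpl21-ps8 is a pseudogene and may take reads of Rpl21. None of the 25 macrophage genes was among these 5, but with 5 places among 15216 genes nothing is read from that.

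For Lyz1 the likeness was loose: Zfp871 (0.799), Ptar1 (0.806), Elfn1 (0.816), 9930111J21Rik1 (0.822) and Gm15777 (0.826) came first, where the median was 1.33. Ptar1, related to prenyltransferase subunits, had 6.15, 4.52 and 5.59 CPM in VEGF/LysM and 1.71, 3.25 and 4.16 CPM in WT. Elfn1, a membrane protein known from synapses, had 23.2, 55.4 and 38.0 CPM in VEGF/LysM and 13.4, 16.5 and 28.4 CPM in WT. Gm15777 is an antisense RNA and cannot be told from its partner without strand. Lyz1 and Lyz2 were far apart by this measure, at 1.65, where Lyz2 ranked 14539 of the genes set against Lyz1.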

How the data were processed

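The tools named per the submitters' processing notes are kallisto and DESeq2 1.36.0, with build mm10 and no role or annotation. Per the labels' protocols, libraries followed the Smart-seq2 approach, which does not mark strand. The authors deposited 1 table of raw counts, all whole numbers; its rounding step is not described. Columns were matched to samples by title. Of 54532 identifiers, 54495 were found in GENCODE M21 (GRCm38), the source of symbols, coordinates and transcripts.

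The filterByExpr filter (minimum count 10, minimum total 15) kept 16300 genes, scaled by TMM. The main test was edgeR 4.0.16 (R 4.3.3) by quasi-likelihood, with 1 term for group and Benjamini-Hochberg adjustment over every tested gene (0.05). A log2 fold change above 0 means higher in VEGF/LysM. Its SE was worked back from that test's F value, as the absolute log2 fold change over the square root of F. For Lyz1, Lyz2 and their sum it is given as a description only. CPM of genes below the filter use the same scaling. Alternatives were DESeq2 size factors, library-size scaling, other filters, DESeq2 1.42.0, limma-voom (limma 3.58.1), a replicate block and each library left out. Fits without replicate 3 of both groups, and list medians without WT replicate 3, were added after the data were seen. The steps were also run on simulated counts, which varied less between libraries than these data. That run checks the steps only, not how readily real changes would be called here.

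The members and the 14 gene lists were chosen with earlier results of these data known. Named genes were Lyz1, Lyz2, their relatives, Csf1r, Cd68, Adgre1, the 2 tested genes of highest mean CPM in each other list, tested neighbours and the 5 genes most alike to each member (pseudocount 0.5 CPM). Vegfa was added to check the labels, genes next to a member in the per-length order were named from that order, and others outside this rule are marked as named after their values were seen. A few listed genes are counted in their lists but not reported here by name. With counts of 16476879 to 18671950 per library, 1 CPM rests on few reads.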

Additional observations from a re-analysis of the deposited data

How the results depend on the processing

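The direction of Lyz2, of Lyz1, of their sum, of the Lyz1 share and of the Lyz2 ratio to macrophage markers held under every alternative run. Leaving out each library in turn gave log2 fold changes of -1.10 to -0.83 for Lyz2, 1.49 to 2.85 for Lyz1 and -0.97 to -0.71 for the sum, differences in the Lyz1 share of 7.68 to 9.31 percentage points, and differences in the log2 ratio to Csf1r and Cd68 of -1.05 to -0.79. With Adgre1 as denominator that difference was -1.25, for which the cause was not tested. Without VEGF/LysM replicate 3 and WT replicate 3, the libraries with most liver transcripts, Lyz2 had -0.92 and Lyz1 2.93. The difference in the log2 ratio to Csf1r and Cd68 was then -0.68, the smallest found. With a replicate block the values were -0.93 for Lyz2 and 2.34 for Lyz1, edgeR called 0 genes (270 at an unadjusted p under 0.05), and same-numbered deviations correlated at 0.0728, -0.00084 and 0.242, so the numbers were not taken to pair the glands. The genes called ranged from 0 to 1 over the fits that left out 1 library, the 1 being called without WT replicate 3. Non-overlapping groups were counted for 1500 genes with no filter, where more genes were tested, for 1822 to 3536 with 1 library left out and for 4644 without both liver-bearing libraries, where fewer samples make overlap rarer. Of 51 other named genes, none passed the threshold under any alternative, and 23 had a value of the other sign somewhere. With library-size scaling these were the macrophage list median (0.063), Csf1r (0.054), Mpeg1 (0.030), Csf3r (0.089), Itgax (0.0049), Psap (0.046), Nod1 (0.046), Cnot2 (0.058) and Slc35e3 (0.018). With DESeq2 size factors they were Vegfa (-0.0022), Ace (-0.0063) and Id3 (-0.0037), and with DESeq2 Vegfa (-0.0022), Ace (-0.0045) and Id3 (-0.0037). With limma-voom they were Cd68 (-0.017), Vegfa (-0.15) and Id3 (-0.013), and with the replicate block Vegfa (-0.15) and Id3 (-0.011). Without both liver-bearing libraries they were Cd68 (-0.33), Vegfa (-0.52), Zbtb46 (-0.034), Id3 (-0.30), Nr1h3 (0.059), Nod1 (0.016), Slc46a3 (0.15), Alb (2.98), Cyp21a1 (-0.14), Cnot2 (0.057), Mdm2 (-0.064) and Slc35e3 (0.0010). Without both, some values lay beyond the gene's range with 1 library left out. Among them were 0.157 for Ace, 1.69 for 9930111J21Rik1, -0.33 for Cd68 and -0.30 for Id3. Slc35e3 ran to -0.16 without VEGF/LysM replicate 2. With 1 library left out the ranges that crossed 0 were -0.19 to 0.058 for the macrophage list median, -0.18 to 0.079 for Csf1r, -0.21 to 0.12 for Cd68, -0.63 to 0.24 for Vegfa, -0.34 to 0.14 for Mpeg1, -0.074 to 0.15 for Ace, -0.65 to 0.30 for Csf3r, -0.060 to 0.18 for Zbtb46, -0.68 to 0.17 for Itgax, -0.24 to 0.18 for Id3, -1.22 to 0.022 for Nr1h3, -0.38 to 0.027 for Cebpb, -0.32 to 0.26 for Nod1, -0.41 to 0.17 for Slc46a3, -14.21 to 8.94 for Alb, -3.35 to 0.33 for Cyp2e1, -0.15 to 0.41 for Cyp21a1, -0.12 to 0.040 for Cnot2, -0.28 to 0.0050 for Yeats4, -0.0043 to 0.24 for Mdm2, -0.091 to 0.23 for Nup107 and -0.50 to 1.64 for 9930111J21Rik1. The cause of these changes of sign was not tested.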
